A study of Homo sapiens with 6 samples.

Results

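The clusters described here are hnRNP A1 crosslink clusters that lay inside an intron and at most 5000 nt from the nearest annotated transcription start. A cluster was taken when the annotation deposited with it began with the word intron and the absolute distance to the nearest start was 5000 nt or less. There were 3698 such near-start clusters, 38.4% of 9637 intronic clusters and 22.7% of 16269 clusters in all. The remaining 5939 intronic clusters lay farther away, 5428 of them between 5000 and 50000 nt and 511 beyond 50000 nt.

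The data are PAR-CLIP cluster lists from HEK293T, a human embryonic kidney cell line, with 2 libraries for each of 3 protein bands. A1dm was the double mutant R75D/R88D of hnRNP A1. A1-HMW was the slowly migrating band of wild-type hnRNP A1, which the labels call dimeric. A1 was the faster, monomeric band of the wild-type protein, and both wild-type bands were seen in the immunoprecipitated material. In all 3 groups the protein carried a myc tag, was expressed by transient transfection, and was recovered with an anti-myc antibody after 4-thiouridine labelling and UV crosslinking. The labels describe no removal of the cells' own hnRNP A1, so each group is a tagged protein in cells that may still have held the untagged one. A1dm replicate 1 held the shortest list, with 232 clusters, and A1 replicate 2 the longest, with 8100. The deposited lists carried no read numbers. A supplementary table of the study gives reads per cluster for clusters of another caller and was not used here, so depth was not taken into account, and the part of list length in any comparison between groups was not tested.

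Introns are removed from nascent RNA by splicing, and hnRNP A1 is a nuclear RNA-binding protein known for regulating splice site choice, often through silencer elements. The first intron follows the first exon of a transcript and is frequently long. Many human genes have several transcription starts, some of them inside the introns of longer transcripts, so an intronic site close to a start need not lie near the 5′ end of its gene. In PAR-CLIP, 4-thiouridine crosslinked to protein is read as a T-to-C change, and a cluster is a short stretch of RNA around such changes.

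The near-start clusters were 12 to 54 nt long, with a median of 24 nt, and every one of the 3698 held at least 1 T. The sequences below are those found in most libraries, and they show the kind of RNA that recurred between protein bands. Coordinates are on hg19, the sequence is that of the cluster strand from 5′ to 3′ in the reference genome, and capitals mark the longest uninterrupted run of A and G.
IQCB1, intron 2, chr3:121549571-121549594, minus strand: ggtGAAAGGAGGAGAGGAGGAAGt
TUG1, intron 1, chr22:31370803-31370822, plus strand: GGGAAGGGGAGAAAAGGGAt
SMC4, intron 2, chr3:160126567-160126593, plus strand: GGAAAAAGAAGGAAGAAAGGAAAtggt
DROSHA, intron 26, chr5:31425596-31425621, minus strand: agggtGAAAGGAGGAAGAAAAAAAGc
CDC23, intron 3, chr5:137531714-137531741, minus strand: agaggaagtGAAAAGGAGAAAGAAGGAt
CCNC, intron 1, chr6:100011026-100011047, minus strand: ctAAGGAGGAAGAAGGAAAAGA
RBM33, intron 16, chr7:155562745-155562766, plus strand: gtGAAAAGGGAAAAGGAGAGGt
BTAF1, intron 3, chr10:93759700-93759722, plus strand: GAGGAAAGGAGAGAGAAGGttat
YWHAE, intron 1, chr17:1301080-1301107, minus strand: agtGGAAAGGAGAGGAGGAGGAGGAGAc
PHF12, intron 1, chr17:27274973-27274998, minus strand: agatGAAAGGAGAAAGAAGGAGGGAc

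These 10 sequences had purine runs of 18 to 24 nt, most of the length of the cluster. Not all regions in 5 libraries had runs as long. In clusters of 3 such regions that are not printed, the longest run was 24 nt in DGCR8, 16 nt in THOC5 and 13 nt in MED15. Both A1-HMW libraries shared 3 regions that A1 lacked. By contrast, the clusters printed for 2 of these 3 regions had short runs, of 4 and 7 nt. The ANKRD30BL region is 46 nt long, and its run was measured on the printed cluster only. These clusters are printed with 1 from a region in RAPGEF1 that was in both A1dm libraries. RAPGEF1, whose region was also in A1 replicate 1, was chosen after its values had been seen.
ANKRD30BL, intron 1, chr2:133013101-133013121, minus strand: tatattAAAGttgttgcagtt
DEPDC5, intron 25, chr22:32237728-32237745, plus strand: GAAAAAGcggagagtggt
RAPGEF1, intron 1, chr9:134604508-134604534, minus strand: tcatggcccctGGGcctgcactgatgc

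A1dm had 50 and 106 near-start clusters in its replicates, A1-HMW had 173 and 206, and A1 had 1352 and 1811. As a share of intronic clusters, they made up 45.9% and 41.1% in A1dm, 44.02% and 40.6% in A1-HMW, and 38.4% and 37.3% in A1. Both libraries of A1dm and of A1-HMW thus lay above both A1 libraries. The mean was 43.5% ± 3.38 in A1dm, 42.3% ± 2.40 in A1-HMW and 37.9% ± 0.80 in A1 (SD, n = 2 each). A1dm exceeded A1 by 5.60 percentage points and A1-HMW exceeded A1 by 4.45 points (exact two-sided permutation test, p = 0.333 for each). With 2 libraries against 2 this exact permutation test cannot go below p = 0.33, so none of the 12 comparisons between bands could pass a threshold of 0.05.

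The order of the bands depended on the denominator. As a share of all clusters, near-start intronic clusters made up 21.6% and 17.8% in A1dm, 25.8% and 23.8% in A1-HMW, and 23.3% and 22.4% in A1, which put both A1dm libraries below both A1 libraries. Intronic clusters of any distance were 47.0% and 43.3% of all clusters in A1dm, 58.6% and 58.6% in A1-HMW, and 60.6% and 59.9% in A1.

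**Figure D1:**
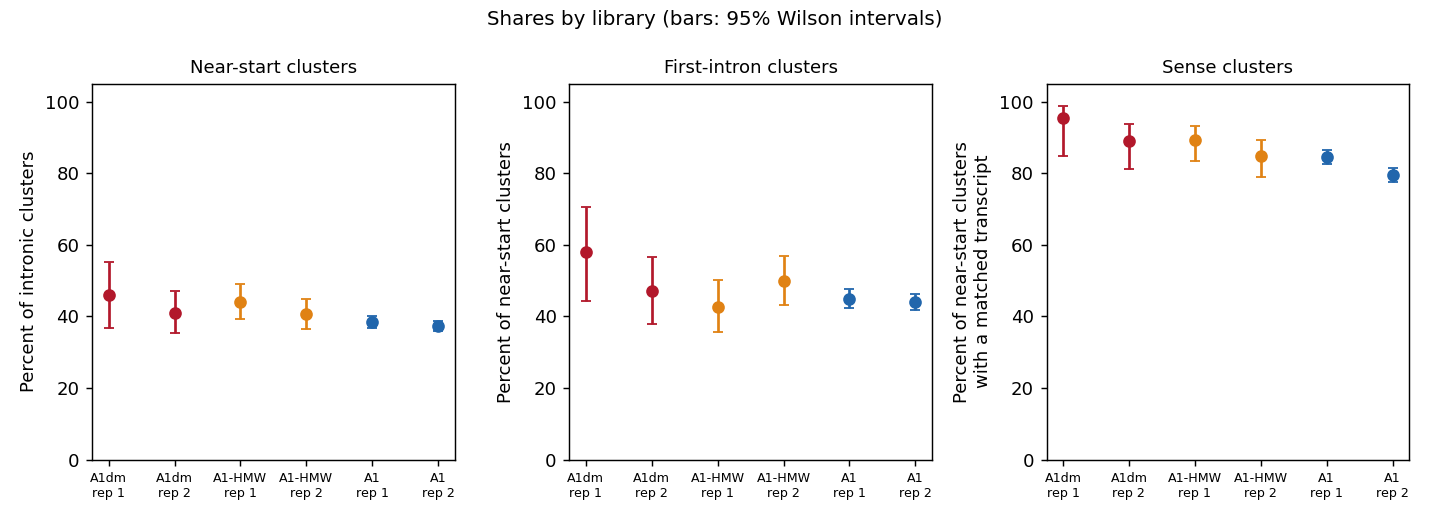
Near-start clusters as a percentage of intronic clusters (left), clusters in the first intron as a percentage of near-start clusters (middle) and clusters on the sense strand as a percentage of near-start clusters with a matched transcript (right), for each library, with 95% Wilson intervals. The sense share ran between 79.5% in A1 replicate 2 and 95.5% in A1dm replicate 1.

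First introns held 1660 of the 3698 near-start clusters (44.9%). By library, the first-intron share was 58.0% (29 clusters) and 47.2% (50) in A1dm, 42.8% (74) and 50% (103) in A1-HMW, and 44.97% (608) and 43.95% (796) in A1. A1dm lay above A1 in both libraries, by 8.12 points in the mean (exact two-sided permutation test, p = 0.333), whereas the A1-HMW libraries lay on either side of the A1 libraries. Among the other intronic clusters the first-intron share was lower in every library, at 23.7% and 39.5% in A1dm, 32.3% and 29.6% in A1-HMW, and 32.1% and 32.1% in A1. The distance to a start was part of the choice of these clusters, so this difference is a description.

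First-intron placement varied with position. Among clusters up to 1000 nt downstream of the nearest start, the first-intron share was 80.0% and 83.3% in A1dm, 55.6% and 70.8% in A1-HMW, and 72.5% and 67.8% in A1. Among clusters upstream of the nearest start it was 53.8% and 26.5% in A1dm, 33.3% and 38.8% in A1-HMW, and 31.4% and 30.6% in A1. The downstream share was the higher of the pair in each of the 6 libraries. These windows are unlike, because the upstream clusters lay 1000 to 5000 nt away. Among clusters 1000 to 2500 nt downstream, the share was 50% and 52.2% in A1dm, 46.2% and 54.5% in A1-HMW, and 48.5% and 49.8% in A1. That was below the upstream share in A1dm replicate 1 and above it in the other libraries.

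Most near-start clusters lay downstream of the start, 2351 of 3698 (63.6%). The downstream share was 74.0% and 67.9% in A1dm, 65.3% and 67.5% in A1-HMW, and 63.5% and 62.5% in A1. The nearest downstream cluster was 103 nt from its start, and the nearest upstream cluster lay at -1006 nt. Clusters closer than this are absent by construction, because the annotation places them in a promoter class. The stretch open to near-start clusters was thus longer downstream than upstream. The downstream share was not adjusted for this, so it does not by itself show a preference for the downstream side. The median absolute distance was 1755 and 2236.5 nt in A1dm, 2517 and 2307.5 nt in A1-HMW, and 2377 and 2362 nt in A1.

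**Figure D2:**
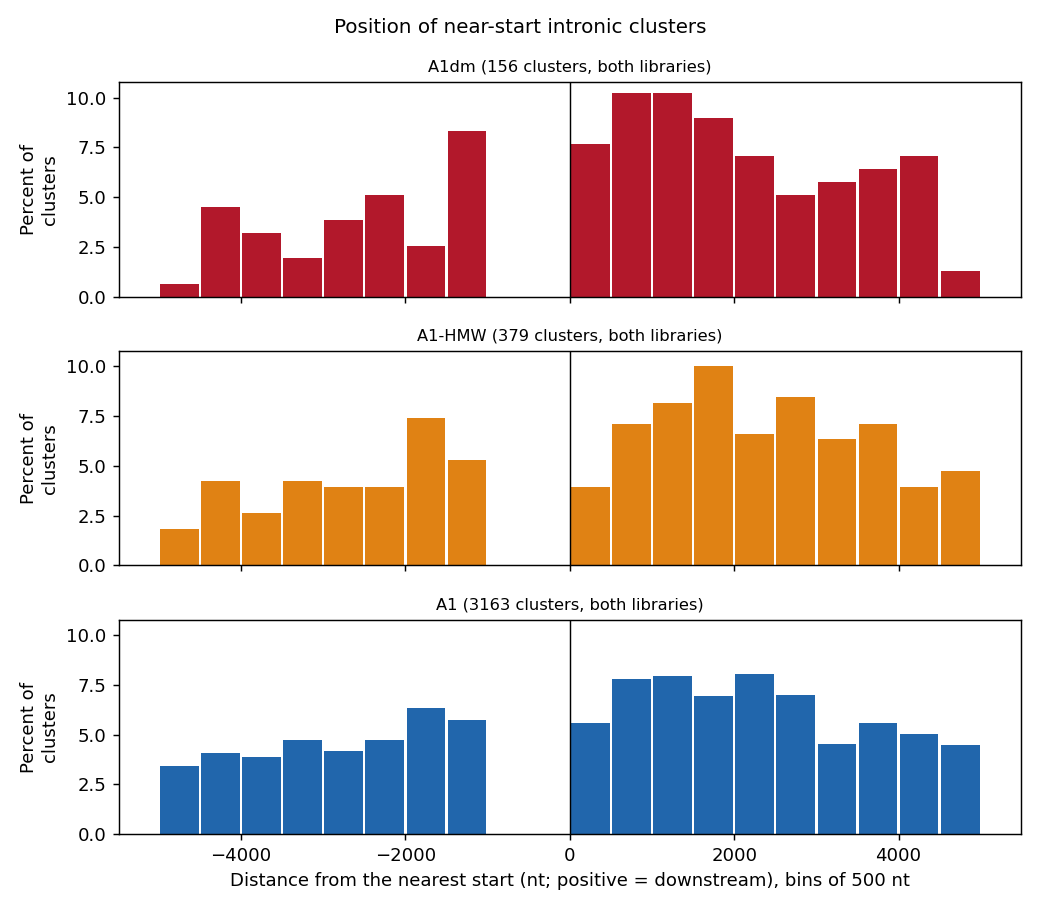
Percentage of near-start clusters in bins of 500 nt by distance from the nearest start, positive downstream, with both libraries of a band pooled (A1dm at the top, n = 156; A1-HMW, n = 379; A1, n = 3163). The empty stretch just upstream of 0 is where clusters were annotated as promoter. The downstream side holds more clusters in each band, over a longer stretch open to them.

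At the 5000 nt limit, the outermost clusters inside were at -4996 nt in MMS22L, -5000 nt in SLC17A8 and 5000 nt in FBXO22. The closest outside were at -5001 nt in SLC17A8 and ANKS1A and at -5005 nt in GTSE1. The SLC17A8 clusters of the A1 replicates are 1 overlapping site that fell on both sides of the limit.

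The nearest start belonged to the gene that held the intron for 2662 of 3400 near-start clusters whose transcript was found in the reference annotation (78.3%). That start was often not the outermost one of the gene. Of the sense clusters, 28.6% and 35.2% in A1dm, 29.8% and 36.4% in A1-HMW, and 26.1% and 25.7% in A1 lay within 5000 nt of the outermost start. The median distance from the outermost start was 28265 and 11018 nt in A1dm, 16967 and 13326.5 nt in A1-HMW, and 20422.5 and 20542 nt in A1. Protein-coding genes owned the nearest start for 2872 clusters (77.7%), and small RNA genes for 242 (6.54%).

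Few of the clusters lay close to a splice site. Between 11.4% and 14.6% of the sense clusters were within 300 nt of a splice site, over the 6 libraries. The median distance was 1887 and 2222 nt from the 5′ splice site in A1dm, 2771.5 and 2502 nt in A1-HMW, and 2463 and 2586 nt in A1. An exon of the newer reference annotation on the same strand covered 101 of the 3698 clusters (2.73%).

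On strand, 2809 of the 3400 near-start clusters with a matched transcript were sense to the intron (82.6%) and 591 were antisense. The sense share was 95.5% (42 clusters) and 88.9% (88) in A1dm, 89.2% (141) and 84.8% (162) in A1-HMW, and 84.6% (1052) and 79.5% (1324) in A1. A1dm lay above A1 in both libraries, by 10.1 points in the mean, and A1-HMW lay above A1 by 4.95 points (exact two-sided permutation test, p = 0.333 for each). Among the other intronic clusters the sense share was 82.0% and 84.1% in A1dm, 85.6% and 85.4% in A1-HMW, and 87.1% and 85.6% in A1, which put both A1dm libraries below both A1 libraries. A gene of the reference lay on the cluster's own strand for 183 of the 591 antisense clusters (31.0%), so some may belong to an overlapping gene. By genomic strand, 38.0% and 48.1% of clusters were on the plus strand in A1dm, 39.9% and 53.9% in A1-HMW, and 51.6% and 51.8% in A1.

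Recurrence was counted as an overlap of at least 1 nt, on the same strand, with a cluster of the other library of the same band. In A1dm, 5 of 50 and 5 of 106 near-start clusters recurred (10% and 4.72%), against 14.7% and 5.7% of all clusters in those libraries. In A1-HMW, 41 of 173 and 41 of 206 recurred (23.7% and 19.9%), against 20.7% and 16.1% of all clusters. In A1, 826 of 1352 and 825 of 1811 recurred (61.1% and 45.6%), against 57.4% and 41.1% of all clusters. The near-start shares therefore stood close to those of their libraries, below them in A1dm and above them in A1-HMW and A1.

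Against the other intronic clusters of the same library, near-start recurrence was 10% against 11.9% and 4.72% against 4.60% in A1dm, 23.7% against 18.6% and 19.9% against 13.6% in A1-HMW, and 61.1% against 56.2% and 45.6% against 40.0% in A1. Near-start clusters were higher in 5 of 6 libraries, by 3.34 ± 3.36 points (mean and SD of the differences, n = 6). This did not pass the test (exact two-sided sign-flip permutation test, p = 0.0938, and 0.656 after Benjamini-Hochberg adjustment over 7 measures). Overlap is mutual, so the 2 libraries of a band count nearly the same pairs of clusters. The 6 differences are therefore not independent, although the test treats them as if they were.

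Recurrence was also counted by strand. Sense clusters recurred in 5 of 42 and 5 of 88 cases in A1dm, 40 of 141 and 40 of 162 in A1-HMW, and 646 of 1052 (61.4%) and 645 of 1324 (48.7%) in A1. Antisense clusters recurred in 0 of 2 and 0 of 11 cases in A1dm and 0 of 17 and 0 of 29 in A1-HMW. The upper limit of a count of 0 was taken as 3 clusters, capped at 100% of the clusters, for counting error only. This allows a share of up to 100% of 2 clusters and 27.3% of 11 in A1dm, and 17.6% of 17 and 10.3% of 29 in A1-HMW. No difference between strands was therefore detectable in A1dm at these numbers. In A1, 111 of 191 (58.1%) and 111 of 341 (32.6%) antisense clusters recurred.

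Most near-start clusters of the other bands had a counterpart in A1. A cluster of either A1 library overlapped 32 of 50 (64%) and 54 of 106 (50.9%) in A1dm, against 58.6% and 45.1% of all clusters in those libraries. For A1-HMW the overlap was 131 of 173 (75.7%) and 155 of 206 (75.2%), against 70.5% and 70.2% of all clusters. Among the other intronic clusters, the overlap was 69.5% and 50.7% in A1dm, and 69.1% and 68.4% in A1-HMW. Beside these, the near-start share was lower in A1dm replicate 1, nearly equal in A1dm replicate 2 and higher in both A1-HMW libraries. The A1 lists were the longest of the 3 bands, and their length was not accounted for in these shares.

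**Figure D3:**
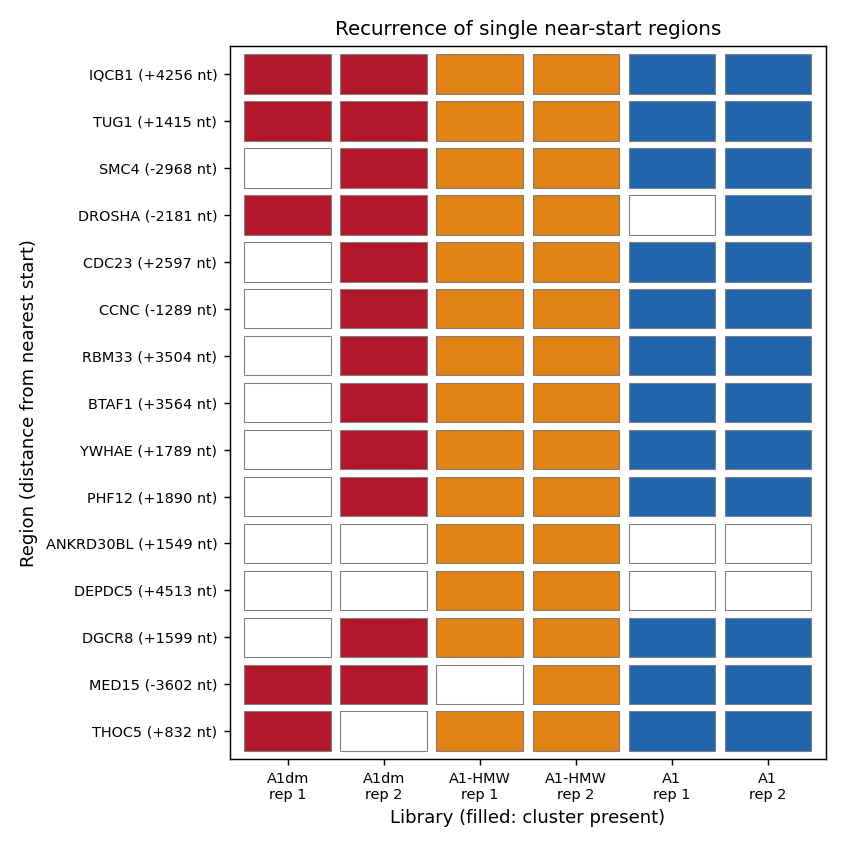
Presence (filled) or absence (empty) of a cluster in each library for near-start regions, labelled by gene and distance from the nearest start in nt. IQCB1 and TUG1 are filled in all 6 libraries, and ANKRD30BL and DEPDC5 only in both A1-HMW libraries.

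Merged across libraries, the near-start clusters formed 2498 regions. Of these, 1589 were in 1 library, 690 in 2, 162 in 3, 43 in 4, 12 in 5 and 2 in 6. Regions with an A1dm cluster numbered 151, of which 5 were in both A1dm libraries (3.31%). There were 338 with an A1-HMW cluster, 41 of them in both libraries (12.1%), and 2338 with an A1 cluster, 826 of them in both (35.3%). None of the 5 regions in both A1dm libraries was missing from both A1 libraries. Of the 151 regions with an A1dm cluster, 70 were in neither A1 library, as were 90 of the 338 with an A1-HMW cluster. There were 615 regions in both A1 libraries and in no other band. These counts were not made for other clusters, and the part of list length in them was not tested. All 3 bands shared 38 regions.

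Both regions found in 6 libraries lay downstream of a start of their own gene. The IQCB1 site, in a gene for a ciliary protein, was at 4256 nt. The TUG1 site, in a long non-coding RNA gene, was at 1415 nt and falls inside an exon of the newer reference annotation, although the deposited annotation calls it intronic. Among the regions in 5 libraries, the DROSHA site, in the gene for the nuclease that cuts primary miRNAs, was in both A1dm libraries and missing only from A1 replicate 1. The others printed above were missing only from A1dm replicate 1. They were in SMC4 (a condensin subunit), CDC23 (a subunit of the anaphase-promoting complex), CCNC (cyclin C of the Mediator kinase module), RBM33 (an RNA-binding protein), BTAF1 (which removes TBP from DNA), YWHAE (14-3-3 epsilon) and PHF12 (a PHD finger protein).

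Of all 2498 regions, 1983 were sense. Over all near-start clusters, 44.9% were in a first intron and 63.6% downstream, and 11.9% of sense clusters were within 300 nt of a splice site. Beside these shares, of the 14 regions in at least 5 libraries, all 14 were sense and 6 were in a first intron. In the same 14, 10 were downstream of the nearest start and 1 was within 300 nt of a splice site. Further members of this group, named after their values had been seen, were DGCR8, the RNA-binding partner of DROSHA, at 1599 nt, MED15, a Mediator subunit, at -3602 nt, and THOC5, a subunit of the mRNA export complex THO, at 832 nt. MED15 was present in both A1dm libraries and missing from A1-HMW replicate 1, and THOC5 was missing from A1dm replicate 2.

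There were 3 regions in both A1-HMW libraries and no A1 library, among them those in ANKRD30BL at 1549 nt and in DEPDC5, a subunit of the GATOR1 complex, at 4513 nt. The nearest start was that of the miRNA gene MIR663B for the ANKRD30BL region and of RNU6-201P for the DEPDC5 region.

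Near-start clusters fell in 2025 genes, of which 1831 were protein coding (90.4%). A further 77 clusters had no gene name. The libraries held 49 and 102 genes in A1dm, 166 and 195 in A1-HMW, and 1158 and 1532 in A1. Both libraries of a band shared 6 genes in A1dm, 50 in A1-HMW and 786 in A1. Most genes, 1706, had 1 region, 240 had 2, 62 had 3 and 17 had 4 or more.

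Genes with 5 regions included ABI3BP, DLEU1, DOK7 and DTNA. All 5 regions of ABI3BP, which encodes an extracellular matrix protein, and all 5 of DOK7, an adaptor of the neuromuscular junction, were antisense. The 5 DOK7 regions lay within 390 nt, and none was in more than 1 library. Of them, 4 were in A1 replicate 2 and 1 in A1 replicate 1. In ABI3BP, 3 of the 5 regions were in 2 or more libraries. A pair of the DOK7 regions is shown because they lie next to each other on the minus strand, opposite the gene. Both of this pair were in A1 replicate 2 alone.
DOK7, intron 3, chr4:3492453-3492480, minus strand: AGGAGGAAGAAGGAAGGAAGGAAtgagt
DOK7, intron 3, chr4:3492485-3492505, minus strand: GGGGAGAAGGAAAGAAGGAAt
AGFG1, one of the genes the study discusses, had 2 regions. The region at 2698 nt was in both A1-HMW and both A1 libraries and in no A1dm library, and the other was in A1 replicate 2 alone.
AGFG1, intron 1, chr2:228378120-228378146, plus strand: gattGAAGGAAAGGAGGAGAGAGAGGt
OVCH1-AS1, ATF3 and HNRNPA1 held no near-start intronic cluster.

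Gene lists by function were described by how many of their genes held a near-start cluster, beside 1831 of 20149 protein-coding genes (9.09%). Chromatin remodelers and histone modifiers had 25 of 88 genes (28.4%), among them ARID1A, BAZ1B, BAZ2B and CHD9. The hnRNPs and related RNA-binding proteins had 14 of 55 (25.5%), among them HNRNPDL, HNRNPM, RBM39 and SYNCRIP. DNA repair and checkpoint genes had 16 of 78 (20.5%), with BLM, FANCM, MSH6 and FANCC. Translation factors had 11 of 57 (19.3%), with EIF4G1, EEF1E1, EIF2S1 and GSPT1. RNA polymerase II transcription and elongation genes had 11 of 81 (13.6%), with GTF2F2, MED12 and TCEA1, and the SR proteins and core spliceosome had 7 of 62 (11.3%), with PRPF4B, AQR, DDX46 and PRPF8. The share of the SR protein and spliceosome list was near that of protein-coding genes as a whole. These counts pool all 6 libraries, and in each list A1 held the most genes. In the chromatin list A1 had 22 genes, A1-HMW 1 and A1dm 3, beside 1724, 287 and 132 of all protein-coding genes. No gene of any list was in both A1dm libraries. In all, 6 genes that the reference annotation types as protein coding were in both. TUG1 and MED15 are among these 6 and were outside the lists. The lists were chosen with earlier results known and were not matched on expression or gene length, whose part was not tested. Other intronic clusters were found in 28 of the chromatin genes, 10 of the hnRNP list, 18 of the DNA repair genes, 3 of the translation factors, 20 of the RNA polymerase II genes and 5 of the spliceosome list, and in 2296 protein-coding genes in all.

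Purines dominated the near-start clusters of each band, least so in A1dm. A run of at least 12 purines was present in 70.0% and 61.3% of clusters in A1dm, 88.4% and 91.3% in A1-HMW, and 99.0% and 96.6% in A1. The bands did not overlap. A1dm lay 32.2 points below A1 and 24.2 points below A1-HMW, and A1-HMW fell by 7.98 points relative to A1 (exact two-sided permutation test, p = 0.333 for each). The hexamer GAGGAA, on the cluster strand, was in 16.0% and 24.5% of clusters in A1dm, 28.3% and 38.8% in A1-HMW, and 33.7% and 33.4% in A1.

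The purine content was local to the cluster. Within 5 nt of the cluster centre, A or G made up 85.1% of bases in A1dm, 95.6% in A1-HMW and 97.7% in A1, against 51.6%, 53.9% and 54.2% at 50 to 100 nt from the centre in the same bands.

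**Figure D4:**
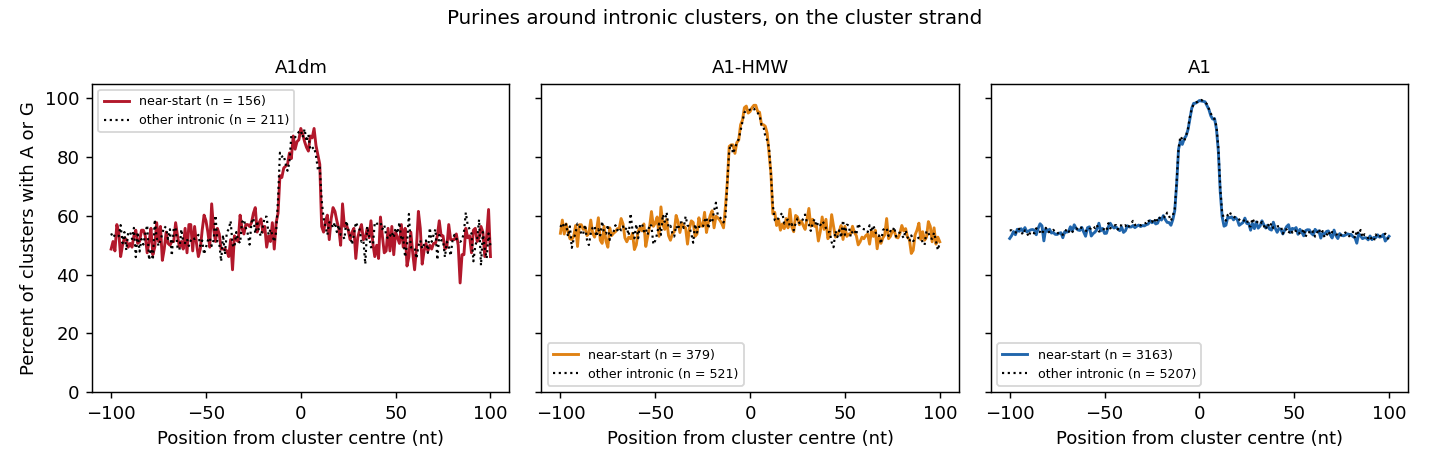
Percentage of clusters with A or G at each position within 100 nt of the cluster centre, on the cluster strand, for near-start (solid) and other intronic clusters (dotted) of A1dm (left), A1-HMW (middle) and A1 (right). Both lines peak at the centre, lowest in A1dm.

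Of 7 measures compared between near-start and other intronic clusters within libraries, none passed the test. A run of 12 purines was present in 70.0% of near-start against 78.0% of other intronic clusters and 61.3% against 64.5% in A1dm, 88.4% against 87.7% and 91.3% against 88.0% in A1-HMW, and 99.0% against 98.2% and 96.6% against 97.5% in A1. The mean difference was -1.20 ± 3.93 points (SD, n = 6), above 0 in 3 of 6 libraries (exact two-sided sign-flip permutation test, adjusted p = 0.875). The differences in sense share, 2.11 ± 6.84 points, and in GAGGAA share, -1.07 ± 6.17 points, were also above 0 in 3 of 6 libraries (adjusted p = 0.875 for each by the same exact test). Each of these mean differences changed sign when A1dm replicate 1, with its 50 near-start clusters, was left out, to 0.153 points for purine runs, -0.155 for sense share and 1.28 for GAGGAA. With 6 libraries this exact test can reach p = 0.03125 before adjustment. After adjustment over 7 measures, 1 measure alone at that value could not pass 0.05. The lack of a pass therefore does not show that the 2 classes are alike.

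**Figure D5:**
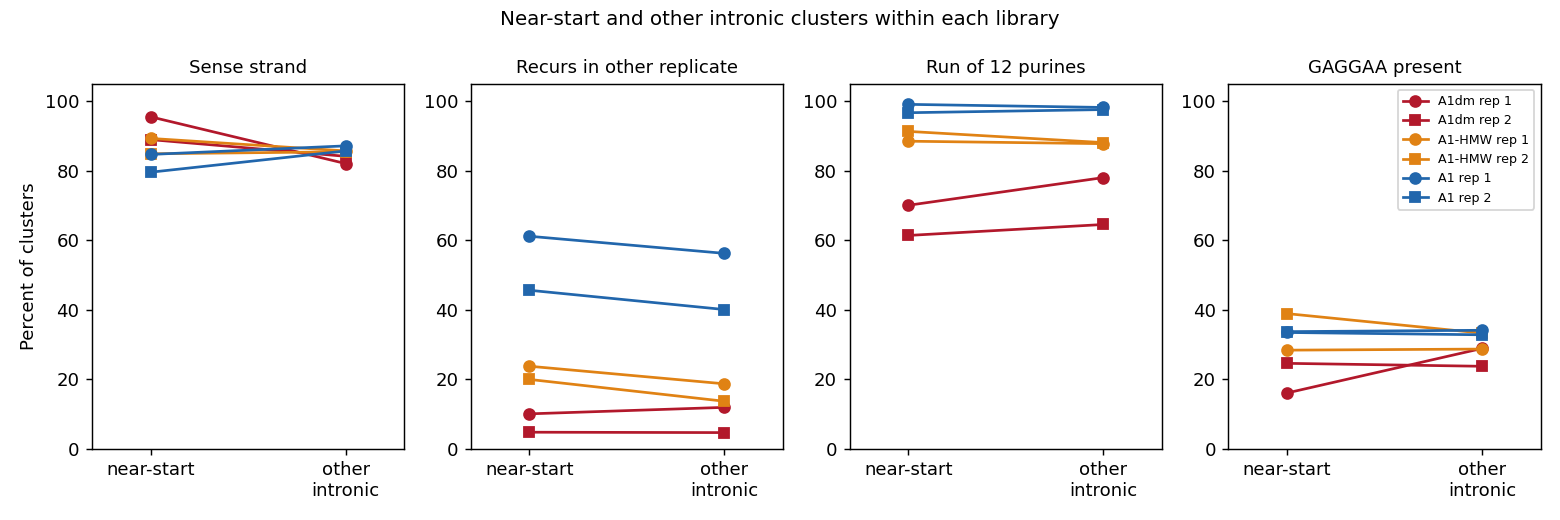
Percentage of near-start clusters (left of each panel) and other intronic clusters (right) that were sense, recurred in the other replicate, held a run of 12 purines or held GAGGAA, with a line for each library. Recurrence was higher near starts in 5 of 6 libraries, and the lines of the other panels run in both directions.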

How the data were processed

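PAR-CLIP libraries of tagged hnRNP A1 were analysed from 6 deposited cluster lists, 2 per band; replicates were independent experiments according to the paper. According to the study's methods, the authors trimmed reads with BBduk, filtered ribosomal RNA, mapped with STAR and used wavClusteR and PARalyzer; the submitters' processing notes name Bowtie and hg19. The file headers name wavClusteR clusters annotated with HOMER. The score that the authors deposited was 0 throughout and carries no read number. The paper's supplementary table holds reads per cluster from PARalyzer, another caller, and was not used here. The other deposited values, positions and annotations, were used as given by the authors, except that the start was taken from the cluster identifier, since the listed start was 1 nt higher in all 16269 lines.

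Members and gene lists were chosen with earlier results of these data known. Regions were members merged by an overlap of at least 1 nt on the same strand. Regions were named for presence in most libraries (up to 10), for both A1dm or both A1-HMW libraries and neither A1 library, and for genes with most regions; genes of the paper, up to 4 genes per list and clusters at the distance limit were also named. No sequence from chromosome 8 is printed, and a few regions and genes that meet these rules are not reported here. Transcripts were matched by unversioned identifier to a GENCODE annotation of the same build (3400 of 3698), and strand and splice site distances rest on these. Bands were compared by exact two-sided permutation tests over libraries, and near-start with other intronic clusters by sign-flip tests over 6 libraries, with Benjamini-Hochberg adjustment over 7 measures. Intervals are 95% Wilson intervals, apart from the upper limits of counts of 0, and cover counting error only. Python 3.11.15, pandas 2.3.3 and scipy 1.17.1 were used. The test code was checked on simulated data. Alternatives were other distance limits (2000 and 10000 nt), other denominators, the listed start, stricter overlap, sense clusters only, a replicate block and each library left out. Counting only starts of the host gene, and taking strand from the detailed annotation for unmatched transcripts, were added after seeing the data.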

Additional observations from a re-analysis of the deposited data

Results flagged for a closer look

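In 4 comparisons of bands, over 3 measures, both libraries of one band moved one way between near-start and other intronic clusters and both libraries of another band moved the opposite way. None of these differences between bands was tested. The sense share was 9.13 points higher near starts in A1dm and -4.29 points in A1, a difference of 13.4 points. The share of clusters with a purine run changed by -5.56 points in A1dm and 1.97 points in A1-HMW, a difference of -7.53 points. The A and G content changed by -1.95 points in A1dm and 0.803 points in A1-HMW, a difference of -2.75 points, and by 0.803 points in A1-HMW and -0.293 points in A1, a difference of 1.10 points. The A1dm libraries held 50 and 106 near-start clusters.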

How the results depend on the processing

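Of 161 alternative values over 19 results, besides the replicate block, 143 kept their direction and 18 reversed, and 10 results had no reversal. No result passed its test under any of these settings. With all clusters as the denominator, the near-start share was -3.16 points for A1dm minus A1 and -5.13 points for A1dm minus A1-HMW. With a limit of 2000 nt, the first-intron share of A1-HMW minus A1 was -0.543 points, and near-start minus other intronic was -0.598 points for sense share and -0.270 for TAGGG. With a limit of 10000 nt, it was -1.33 points for sense share, 0.260 for A and G content, 1.19 for purine runs and 0.167 nt for length. With sense clusters only, TAGGG was -0.0749 points. The causes were not tested.

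Leaving out each library in turn, the near-start share ranged from 3.21 to 7.99 points for A1dm minus A1, 2.75 to 6.14 for A1-HMW minus A1 and -1.24 to 3.55 for A1dm minus A1-HMW. The first-intron share ranged from 2.71 to 13.5, -1.69 to 5.54 and 0.783 to 11.6 points in the same order, the sense share from 6.81 to 13.4, 2.39 to 7.51 and 1.86 to 8.43, and purine runs from -36.5 to -27.8, -9.40 to -6.57 and -28.5 to -19.9. For near-start minus other intronic, the ranges were -0.155 to 3.76 for sense share, -0.747 to 0.169 for A and G content, -2.08 to 0.153 for purine runs, -2.40 to 1.28 for GAGGAA, -0.267 to 0.414 for TAGGG, 2.76 to 4.39 for recurrence and -0.30 to -0.10 nt for length. The paper describes 2 independent experiments, with RNA of all 3 bands purified and sequenced. The sources used here do not state that the replicate number of a library names its experiment. Near-start share and sense share were higher in replicate 1 than in replicate 2 in all 3 bands. With the replicate block the mean differences are the same by construction (5.60 points for the near-start share of A1dm minus A1), and the exact permutation test within replicate numbers cannot go below p = 0.5. Within replicates 1 and 2, that difference was 7.43 and 3.77 points, and the sense share of A1dm minus A1 was 10.8 and 9.37 points. The first-intron share changed sign between them for A1-HMW minus A1, at -2.20 and 6.05 points, and for A1dm minus A1-HMW, at 15.2 and -2.83 points.

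Depth was not taken into account, and A1dm replicate 1 rests on 50 near-start clusters, so its shares are the least precise.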
